A study of Mus musculus with 69 samples.

Results

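Keratins are the intermediate filament proteins of epithelial cells. Each filament is assembled from pairs of a type I (acidic) and a type II (basic) keratin, and a chain without a partner is degraded. Krt8 with Krt18 is the basic pair of simple, single-layered epithelia, the kidney tubules included, and Krt7 and Krt19 are added to it in ducts, in the collecting duct and in the urothelium that lines the renal pelvis. The values below are those of 7 keratin genes: the type II genes Krt7, Krt8, Krt5 and Krt80 and the type I genes Krt18, Krt19 and Krt23. They were taken by gene symbol from a table of read counts with 24411 genes and 69 libraries of mouse kidney. Each of the 7 had at least 7 reads in every library, and all 7 passed the filter on low counts. Krt5 is best known as a keratin of basal cells in stratified epithelia, not of simple ones, and it had the lowest counts of the 7 (between 7 and 112 reads per library).

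The mice carried a floxed-stop uracil phosphoribosyltransferase (Uprt) from Toxoplasma gondii in the Rosa26 locus together with Hoxb7Cre, which is active in the collecting duct, or Atp6v1b1Cre (spelled Atp6b1v1Cre in the labels), which is active in intercalated and double-positive cells of the collecting duct and also marked a few scattered interstitial cells. Cells with Uprt build injected 4-thiouracil (4-TU) into RNA made during the labeling period, and this RNA was biotinylated and pulled down on streptavidin beads. All mice, controls included, received 430 mg/kg of 4-TU intraperitoneally 4 h before the kidney was removed. The pulldowns are 10 control, 7 ischemia and 7 volume depletion libraries of Hoxb7Cre;UPRTf/+ mice and 11 control, 6 ischemia and 7 volume depletion libraries of Atp6b1v1Cre;UPRTf/+ mice. Ischemia (iAKI) was a clamp on both renal pedicles for 10 minutes with labeling 24 h later, and volume depletion (vAKI) was 72 h without food and water. A further 21 libraries are total kidney RNA of control mice with no pulldown, 10 of them of the Hoxb7Cre and 11 of the Atp6v1b1Cre genotype. All treated mice were 5.5 months old, and 10 of the 42 control libraries came from mice of 3 months. No label names the mouse of a library, so the p-values measure the spread between libraries. In order of library number, however, the total libraries match the control pulldowns in genotype, sex and age. The paper's supplement lists 21 mice for its comparison of each control pulldown with total RNA. The 42 control libraries thus most likely come from 21 mice, with total and pulldown RNA of the same kidneys. The tests of pulldown against total RNA and of sex over the 42 libraries did not use such pairing. In bulk RNA, fewer cells of a type and less RNA per cell cannot be told apart.

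The libraries held between 12618062 and 30305464 counted reads, with a median of 20868430. Levels are given as CPM, the reads of a gene for every 1000000 reads of the library, on a single TMM scale over the 69 libraries. The labelled domains were checked on marker genes. Against total RNA, 6 of 8 principal cell markers were higher in the Hoxb7Cre pulldown, 5 of 6 intercalated cell markers were higher in the Atp6v1b1Cre pulldown, and 6 of 6 proximal tubule markers were lower in the latter. Of all genes, 66.6% passed in either direction in the Hoxb7Cre comparison and 63.8% in the Atp6v1b1Cre comparison. Each count is given for 1 pulldown only, so it does not show that the markers were particular to that driver. Proximal tubule RNA was still present in both: the summed level of those 6 markers was 7699 to 15468 CPM in total RNA, 1574 to 4184 CPM in Hoxb7Cre control pulldowns and 1296 to 4135 CPM in Atp6v1b1Cre control pulldowns. All treated Hoxb7Cre libraries carry library numbers of 1 numbering series (A), while the Hoxb7Cre controls come from 3 series.

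The 7 genes lie in the mouse keratin clusters, the type I genes on chromosome 11 and the type II genes on chromosome 15. Krt18 is the exception: it is a type I gene, but it lies at the end of the type II cluster beside its partner Krt8. In GRCm38 (mm10), Krt23 spans 99477974 to 99493137 and Krt19 spans 100140810 to 100148665, both on the minus strand of chromosome 11. On chromosome 15, Krt80 spans 101347444 to 101370162 (minus), Krt7 101411043 to 101430313 (plus), Krt5 101707070 to 101712898 (minus), Krt8 101996698 to 102004482 (minus) and Krt18 102028180 to 102032027 (plus). The start sites of Krt8 and Krt18 point away from each other with 23697 bases between the genes. Krt80 and Krt7 are also divergent neighbours, with 40880 bases between them.

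The start sites of Krt8 and Krt18, the partner genes, and of Krt7, the member that passed the test after volume depletion in males of both drivers, are printed because the results below turn on these genes. They are the 250 bases before and 50 bases after the RefSeq start in GRCm38.p6, 5′ to 3′ on the strand of the gene, for Krt8 chr15:102004293-102004592 (minus strand), for Krt18 chr15:102027966-102028265 (plus) and for Krt7 chr15:101412153-101412452 (plus). Capitals mark matches on either strand to any of 6 motifs searched.
Krt8: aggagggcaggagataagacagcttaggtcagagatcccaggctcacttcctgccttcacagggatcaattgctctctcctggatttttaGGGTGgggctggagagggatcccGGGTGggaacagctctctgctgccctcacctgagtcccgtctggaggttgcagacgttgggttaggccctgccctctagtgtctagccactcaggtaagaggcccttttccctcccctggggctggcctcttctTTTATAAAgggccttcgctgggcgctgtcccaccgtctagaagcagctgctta
Krt18: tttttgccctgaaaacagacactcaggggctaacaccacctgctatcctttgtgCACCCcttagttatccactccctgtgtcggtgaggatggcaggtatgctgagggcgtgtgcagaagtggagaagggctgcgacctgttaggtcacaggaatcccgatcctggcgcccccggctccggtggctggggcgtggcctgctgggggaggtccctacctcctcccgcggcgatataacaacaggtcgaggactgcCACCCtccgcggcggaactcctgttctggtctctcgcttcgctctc
Krt7: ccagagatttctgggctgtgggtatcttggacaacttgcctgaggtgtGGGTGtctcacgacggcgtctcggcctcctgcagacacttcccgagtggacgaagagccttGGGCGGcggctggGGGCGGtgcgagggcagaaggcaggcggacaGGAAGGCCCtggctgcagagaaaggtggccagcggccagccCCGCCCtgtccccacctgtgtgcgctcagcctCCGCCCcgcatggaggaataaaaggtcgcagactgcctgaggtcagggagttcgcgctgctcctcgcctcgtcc

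The motifs searched on both strands were AP-1 (TGANTCA), Sp1 (GGGCGG), KLF (CACCC), grainyhead (AACNNGTT), NF-kB (GGGNNTTCC) and the TATA box (TATAAA). Krt7 held 4 matches to the Sp1 letters, which 35.7% of 32851 mouse promoters of this length hold at least 1 time, with 1 match to KLF and 1 to NF-kB (5.82% of promoters). Krt8 and Krt18 each held 2 KLF matches (57.5% of promoters) and none to Sp1. Krt8 alone of these 3 held TATA box letters (13.6% of promoters), in an overlapping match on each strand. These matches began at −3 and −1 bases from the RefSeq start and ran across it, so they lie on the start and not before it. Of the other members, Krt5 held 4 KLF matches and Krt23 matched none of the 6. The AP-1 letters (7.81% of promoters) and the grainyhead letters (4.2%) occurred in none of the 5 sequences. A match is a description of letters and says nothing about binding.

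In control kidneys, Krt8, Krt18 and Krt7 were the main keratins in every RNA pool. Levels between genes are compared as mean CPM per kb of the principal GENCODE transcript. In the Hoxb7Cre pulldown these were 40.6 ± 6.51 for Krt18, 39.9 ± 7.49 for Krt8, 26.8 ± 7.17 for Krt7, 9.07 ± 2.23 for Krt19, 6.95 ± 0.861 for Krt23, 6.19 ± 1.41 for Krt80 and 1.51 ± 0.387 for Krt5 (SD, n = 10). Krt18 and Krt8 differed there by less than their spread, as did Krt23 and Krt80. In the Atp6v1b1Cre pulldown (n = 11) the order was Krt8 at 35.2 ± 6.00, Krt7 at 26.7 ± 3.95, Krt18 at 25.1 ± 5.84, Krt80 at 7.05 ± 0.928, Krt19 at 3.23 ± 1.10, Krt23 at 3.13 ± 1.01 and Krt5 at 0.678 ± 0.364, and Krt7 and Krt18, like Krt19 and Krt23, lay within their spread. In total RNA (n = 21) Krt8 stood apart at 70.3 ± 12.2, above Krt7 at 36.3 ± 5.94 and Krt18 at 24.7 ± 6.82, with Krt80 (4.43 ± 1.22) and Krt19 (4.41 ± 1.07) level, then Krt23 (1.78 ± 0.559) and Krt5 (1.36 ± 0.451). The place of Krt7 depends on the length used, since 4094 bases of its principal transcript hold only 1371 coding bases. Per kb of coding sequence Krt7 had the highest mean of the 7 in each pool, at 79.9 in the Hoxb7Cre pulldown, 79.7 in the Atp6v1b1Cre pulldown and 108.3 in total RNA.

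The keratins of the labelled RNA differed from those of whole kidney, and not in a common direction. The type I genes Krt23, Krt19 and Krt18 were higher in the Hoxb7Cre pulldown than in total RNA, and the type II genes Krt8 and Krt7 were lower. Krt23 had the largest difference of the 7: its 10 Hoxb7Cre control libraries ran from 7.84 to 12.3 CPM (median 11.3) and the 21 total libraries from 1.13 to 4.07 CPM (median 2.73), and these ranges did not meet. Its log2 fold change was 1.99 (SE 0.14, edgeR adjusted p = 1.609e-17). Krt19 ran from 8.04 to 18.0 CPM (median 14.0) against 4.15 to 10.2 CPM (median 7.14), with a log2 fold change of 1.08 (SE 0.14). Krt18, the partner of Krt8, ran from 41.7 to 70.9 CPM (median 60.5) against 22.9 to 54.9 CPM (median 33.05), a log2 fold change of 0.76 (SE 0.11). Krt8 went the other way from its partner, with 52.5 to 96.0 CPM (median 82.1) in the pulldown against 79.9 to 177 CPM (median 135) in total RNA and a log2 fold change of −0.75 (SE 0.09). Krt7 was lower by a smaller amount (log2 fold change −0.40, SE 0.11, adjusted p = 0.001413) and Krt80 was higher (0.52, SE 0.12). Krt5 did not pass (0.19, 95% interval −0.18 to 0.56). In all, 6 of 7 members passed an adjusted p of 0.05, in a comparison in which 66.6% of 21175 genes passed, so that passing by itself is near the background. The median log2 fold change was 0.52 over the 7 and 0.11 over all genes tested. In males alone Krt7 was −0.01 and did not pass (adjusted p = 0.98), and in females alone it was −0.74.

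**Figure D1:**
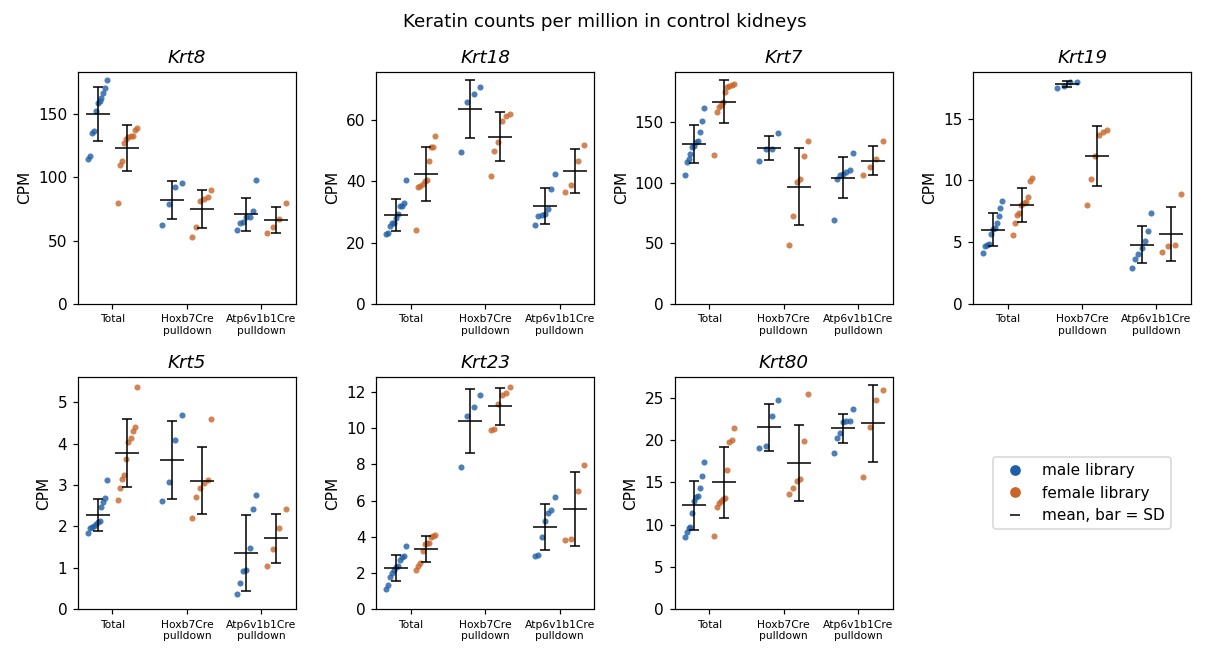
CPM of the 7 keratins in control libraries, by RNA pool on the horizontal axis, with males in blue, females in orange and mean and SD in black. Krt23 lies between 7.84 and 12.3 CPM in the Hoxb7Cre pulldown and between 1.13 and 4.07 CPM in total RNA, while Krt8 is highest in total RNA.

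The Atp6v1b1Cre pulldown shared with the other pulldown a lower Krt8 and a higher Krt23 and Krt80 than total RNA, the total libraries being the same ones. Its log2 fold changes against total were −0.97 for Krt8 (SE 0.09), 0.92 for Krt23 (SE 0.14), 0.72 for Krt80 (SE 0.12) and −0.38 for Krt7 (SE 0.11). Krt5 at −0.89 (SE 0.20) and Krt19 at −0.39 (SE 0.14, edgeR adjusted p = 0.01642) were lower, and Krt18 did not pass (0.12, 95% interval −0.10 to 0.33). Thus 6 of 7 members passed, where 63.8% of all genes did. The Krt19 call was lost in males alone (−0.31, adjusted p = 0.1005), in females alone (−0.46, adjusted p = 0.05059) and in mice of 5.5 months alone (−0.29, adjusted p = 0.1577).

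Of the 7 keratins, 4 differed between the control pulldowns. Krt19, Krt5, Krt23 and Krt18 were lower in the Atp6v1b1Cre than in the Hoxb7Cre pulldown, in a comparison in which 9.93% of all genes passed. For Krt19 the Atp6v1b1Cre controls ran from 2.93 to 8.93 CPM with a median of 4.69, and the log2 fold change was −1.47 (SE 0.17, adjusted p = 4.571e-09). Only the highest Atp6v1b1Cre library reached into the Hoxb7Cre range, which began at 8.04 CPM. Krt5 differed by −1.08 (SE 0.22), Krt23 by −1.07 (SE 0.16) and Krt18 by −0.64 (SE 0.13). The remaining type II genes did not pass: Krt7 was 0.02 (95% interval −0.22 to 0.26), Krt8 −0.22 (−0.42 to −0.02, adjusted p = 0.2051) and Krt80 0.21 (−0.07 to 0.48). Urothelium also expresses Krt5, Krt7, Krt18 and Krt19, and its markers moved with this comparison. All 6 of the 6 urothelium markers (Upk1a, Upk1b, Upk2, Upk3a, Trp63 and Psca) were lower in the Atp6v1b1Cre pulldown, and their summed level was 13.1 to 24.9 CPM there against 32.1 to 50.7 CPM in the Hoxb7Cre controls. Of 8 principal cell markers, 5 were lower as well. Immune cell markers were higher in the Atp6v1b1Cre pulldown in 4 of 5. The part of any of these cell types in the keratin differences was not tested. In females alone Krt18 (−0.34, adjusted p = 0.3235) and Krt5 (−0.85, adjusted p = 0.05443) did not pass.

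Krt8 and Krt18 pair in equal amounts as proteins, so the ratio of their reads was followed over the libraries, as a description with no test. Read counts were not divided by length, which is shared by all libraries. Krt8 reads per Krt18 read were 1.34 ± 0.148 in the Hoxb7Cre controls (SD, n = 10). In total RNA the ratio was far higher and differed by sex: it was 5.22 ± 0.549 in 11 males, with a range of 4.01 to 5.99, and 2.96 ± 0.346 in 10 females, with a range of 2.42 to 3.49. No male and female total libraries overlapped. The Hoxb7Cre controls of 5.5 months had ratios of 1.15, 1.25, 1.35 and 1.40 in males and of 1.05, 1.36, 1.45 and 1.53 in females, without such a sex gap. In the Atp6v1b1Cre controls of the same age, males had 1.957, 1.99, 2.23 and 2.31 and females 1.44, 1.45, 1.54 and 1.67. The Krt8 counts carry a caution: a processed pseudogene, Krt8-ps, matches 941 bases of Krt8 at 98.6% identity, it has no row of its own in the table, and reads that map equally well to more than 1 place were not counted.

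**Figure D2:**
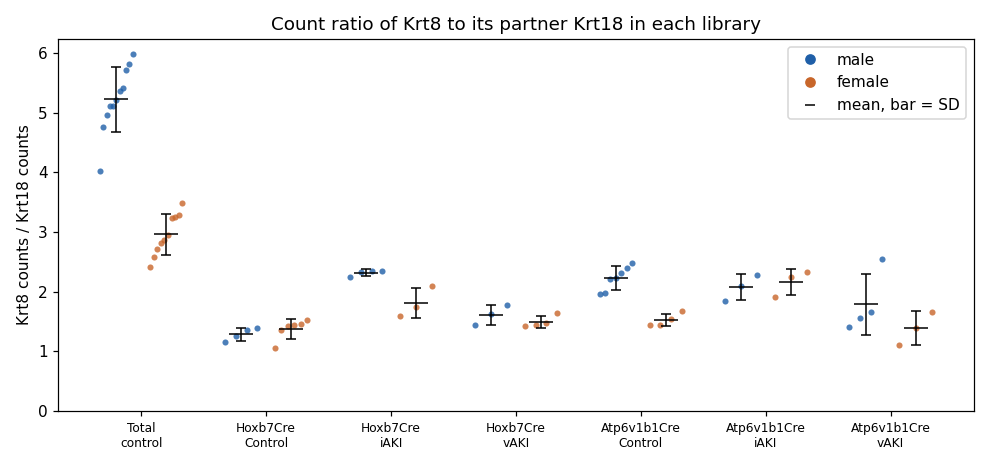
Krt8 reads per Krt18 read in each library, by condition, with males in blue, females in orange and mean and SD in black. Total control kidneys lie highest, with males between 4.01 and 5.99 and females between 2.42 and 3.49, and the male Hoxb7Cre ischemia libraries lie between 2.24 and 2.35, above their controls at 1.15 to 1.40.

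Krt8 and Krt18 differed between the sexes in opposite directions. Over the 42 control libraries, with the RNA pool in the model, males had more Krt8 than females (log2 fold change 0.21, SE 0.07, edgeR adjusted p = 0.02192) and less Krt18 (−0.32, SE 0.09, adjusted p = 0.005035) and Krt23 (−0.35, SE 0.12, adjusted p = 0.01982), 3 of 7 members against 30.3% of all genes. Krt5 (−0.39, adjusted p = 0.05499), Krt7, Krt19 and Krt80 did not pass. Total and pulldown libraries most likely share mice. The fit of the 42 libraries counts them as separate mice, and its p-values for sex are then too low.

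Total RNA has the most control libraries of each sex. There Krt18 was 29.1 ± 5.18 CPM in 11 males and 42.4 ± 8.90 CPM in 10 females (SD), and Krt8 was 150 ± 21.4 and 124 ± 18.2 CPM. Krt7 ran from 106.2 to 162 CPM in males, with 9 of the 10 females between 158 and 181 CPM and 1 at 123 CPM. Krt5, the basal cell keratin, was 2.27 ± 0.392 CPM in males and 3.78 ± 0.823 CPM in females. A fit of the total libraries alone, added after the values were seen, gave 6 of 7 members past the threshold (31.7% of all genes passed). Males were lower in Krt5 (−0.77), Krt18 (−0.58), Krt23 (−0.58), Krt19 (−0.45) and Krt7 (−0.38) and higher in Krt8 (0.25, adjusted p = 0.0349). In the Atp6v1b1Cre pulldown libraries alone Krt18 was −0.43 and did not pass (adjusted p = 0.1649), and in the Hoxb7Cre libraries alone it was 0.22, the other direction (adjusted p = 0.371). The difference of the sex effect between total and pulldown RNA itself, also added after the values were seen, passed for no member in edgeR (4.45% of all genes passed), with 5 at an unadjusted p under 0.05. By DESeq2 it passed for 1, Krt7 (−0.47, adjusted p = 0.04252). The 6 urothelium markers summed to 28.9 to 59.9 CPM in male and 37.5 to 70.9 CPM in female total libraries, and 5 of them were lower in males over the 42 controls. Mesothelium, the lining of the kidney surface, also expresses simple keratins, and 2 of its 4 markers were lower in males. The part of these cell types in the sex differences was not tested.

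Ischemia in males lowered 1 of the 7 keratins in the Hoxb7Cre pulldown past the threshold. This was Krt80, and 6.13% of all genes passed. The male controls had 19.0, 19.4, 22.9 and 24.8 CPM of Krt80 and the male ischemia libraries had 9.49, 10.1, 10.4 and 11.7 CPM, so that every ischemia library was below every control. Its log2 fold change was −1.03 (SE 0.15, edgeR adjusted p = 0.0004666). The Krt18 libraries were also apart, with controls at 49.8, 65.9, 68.4 and 70.9 CPM and ischemia at 31.6, 32.8, 34.2 and 45.6 CPM, but the test did not pass (−0.81, SE 0.25, adjusted p = 0.05544). Krt23 had 7.84 to 11.9 CPM in controls and 4.01 to 7.60 CPM after ischemia (−0.77, SE 0.26, adjusted p = 0.08517), and Krt7 118 to 141 CPM against 79.4 to 110 CPM (−0.52, SE 0.19, adjusted p = 0.1059). For 4 of the 7 members the groups thus did not overlap, in each case with ischemia lower, against 15.9% of all genes whose groups did not overlap in either direction. Krt8, the partner of Krt18, had overlapping groups, with 62.4, 78.96, 92.1 and 96.0 CPM in controls and 74.3, 76.6, 76.7 and 107.2 CPM after ischemia (0.04, 95% interval −0.41 to 0.48). Krt19 (−0.47, adjusted p = 0.392) and Krt5 (−0.75, adjusted p = 0.2996) did not pass. The median log2 fold change of the 7 was −0.75, that of all genes 0. Krt18 lay near the threshold. It passed in DESeq2 (adjusted p = 0.02037), in a fit of the compared groups alone (adjusted p = 0.007126) and when 1 of 6 libraries was left out in turn, from adjusted p = 0.008522 without Atp6v1b1Cre volume depletion replicate 1 to 0.04964 without replicate 6 of that group; the others were replicate 7 of that group, Atp6v1b1Cre ischemia replicate 5, Hoxb7Cre control replicate 2 and Hoxb7Cre volume depletion replicate 4. Krt23 passed in DESeq2 (adjusted p = 0.03525) and without Atp6v1b1Cre volume depletion replicate 1 (adjusted p = 0.02775).

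The Krt8 to Krt18 ratio of the male Hoxb7Cre libraries was 2.24, 2.34, 2.35 and 2.35 after ischemia, against 1.15 to 1.40 in controls. In females it was 1.60, 1.74 and 2.09 after ischemia, above the highest control at 1.53. Male ratios of the Atp6v1b1Cre pulldown overlapped, at 1.85, 2.10 and 2.28 after ischemia and 1.957 to 2.31 in controls. Female ratios of that pulldown did not overlap, at 1.91 to 2.33 after ischemia and 1.44 to 1.67 in controls.

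Principal cell markers were also lower in the Hoxb7Cre ischemia libraries. Of the 8 principal cell markers, 7 were lower, and their summed level was 1072 to 1315 CPM in males after ischemia against 2802 to 3646 CPM in controls. The 6 urothelium markers summed to 24.01 to 33.3 CPM, under the lowest control at 38.8 CPM, with 2 of them lower. All 4 fat cell markers were lower (11.7 to 33.1 CPM summed against 46.3 to 124 CPM), and 3 of 6 stroma and endothelium markers were higher. The part of these in the lower keratins was not tested. The male ischemia library of replicate 5 had the highest level of its group for Krt7, Krt8, Krt18, Krt19, Krt5 and Krt80. Without it the log2 fold changes were −0.96 for Krt18 (adjusted p = 0.05396) and −0.66 for Krt7 (adjusted p = 0.07759), and Krt80 still passed (−1.11).

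In the Atp6v1b1Cre pulldown Krt80 was again the only member past the threshold in edgeR after ischemia (8.51% of all genes passed). It had 20.2, 22.1, 22.2 and 22.3 CPM in male controls and 12.1, 14.6 and 15.3 CPM after ischemia, with no overlap, a log2 fold change of −0.64 (SE 0.16) and an adjusted p of 0.01466. The call was lost without ischemia replicate 1 (adjusted p = 0.05538) or replicate 5 (adjusted p = 0.06452), and with libraries of series A alone (−0.51, adjusted p = 0.1038). Krt7 did not follow its Hoxb7Cre direction. Its male controls had 106.6, 106.9, 108.6 and 111 CPM and its ischemia libraries 144, 164 and 172 CPM, all above the controls, though the test did not pass (0.55, SE 0.20, adjusted p = 0.09006). It passed without Atp6v1b1Cre volume depletion replicate 6 (adjusted p = 0.04782). Krt80 and Krt7 were the 2 members without overlap, against 20.6% of all genes. The other 5 overlapped, with log2 fold changes between −0.24 for Krt23 and 0.65 for Krt19.

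The response of Krt7 and of Krt18 to ischemia differed between the drivers when the difference itself was tested. The Atp6v1b1Cre response minus the Hoxb7Cre response was 1.08 for Krt7 (SE 0.28, adjusted p = 0.02097) and 1.19 for Krt18 (SE 0.37, adjusted p = 0.04674), 2 of 7 members against 7.79% of all genes. For Krt18 the Atp6v1b1Cre libraries were 28.9, 29.5, 37.5 and 42.4 CPM in controls and 38.9, 42.4 and 54.8 CPM after ischemia. Krt80, which fell in both pulldowns, gave 0.39 (95% interval −0.03 to 0.80). The Krt18 call was lost when any 1 of 15 of the 22 libraries was left out (adjusted p from 0.05093 to 0.0902), and the Krt7 call without Atp6v1b1Cre ischemia replicate 1 (adjusted p = 0.0577). Krt19 (1.12, adjusted p = 0.1153) passed without Hoxb7Cre ischemia replicate 5 (1.56, adjusted p = 0.01823). With both sexes in the fit neither passed, with Krt7 at 0.64 (adjusted p = 0.286) and Krt18 at 0.89 (adjusted p = 0.05775), and in females alone the Krt7 difference was 0.09. Of the 8 principal cell markers, 6 differed in the same direction between the drivers (median 1.57), and their part in the keratin differences was not tested.

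**Figure D3:**
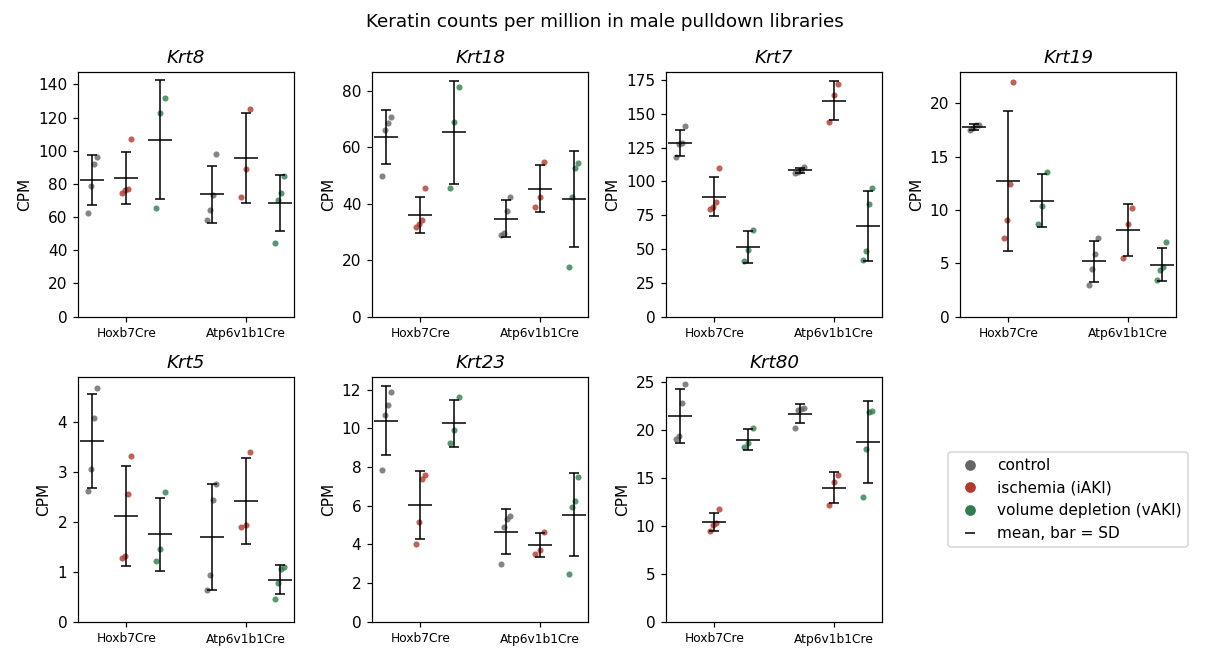
CPM of the 7 keratins in the 22 male pulldown libraries of 5.5 months, by driver, with controls in grey, ischemia in red, volume depletion in green and mean and SD in black. Krt80 after ischemia lies below its controls in both pulldowns, and Krt7 after volume depletion does too.

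In males, volume depletion lowered Krt7. In the Hoxb7Cre pulldown the male controls had 118, 128, 128 and 141 CPM of Krt7 and the volume-depleted males 41.1, 48.9 and 64.3 CPM. All 3 were below every control, and the log2 fold change was −1.32 (SE 0.21, adjusted p = 5.056e-05). The Hoxb7Cre females had 79.6 ± 32.5 CPM after volume depletion and 81.01 ± 25.7 CPM in controls (SD, n = 4 each), and with both sexes in edgeR the fold change was −0.61 and did not pass (adjusted p = 0.06631). In edgeR Krt7 was the only member past the threshold, 1 of 7, in a comparison in which 35.5% of all genes passed. Krt19 and Krt5 did not pass, though their groups did not overlap. Krt19 had 17.5, 17.7, 18.0 and 18.0 CPM in controls against 8.66, 10.4 and 13.5 CPM (−0.71, SE 0.32, adjusted p = 0.09245). Krt5 had 2.62 to 4.69 CPM against 1.21 to 2.59 CPM (−1.04, SE 0.44, adjusted p = 0.07175). Krt19 passed without Hoxb7Cre ischemia replicate 5 (adjusted p = 0.04802) and Krt5 without volume depletion replicate 7 (−1.43, adjusted p = 0.04141). The groups of 3 of 7 members did not overlap, against 39.5% of all genes. Krt8 at 65.6, 123 and 132 CPM (0.38, 95% interval −0.10 to 0.86), Krt18 at 45.5, 69.01 and 81.2 CPM (0.04, −0.48 to 0.56), Krt23 (−0.01, −0.56 to 0.54) and Krt80 (−0.17, −0.47 to 0.13) overlapped their controls. Replicate 4 was the low library for both Krt8 and Krt18, and the Krt8 to Krt18 ratios of the 3 libraries were 1.44, 1.63 and 1.78. Principal cell markers were lower here as well, 8 of 8, with a summed level of 1174 to 1261 CPM, and 4 of the 6 urothelium markers were lower (27.1 to 29.9 CPM summed). Their part in the lower Krt7, Krt19 and Krt5 was not tested.

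In the Atp6v1b1Cre pulldown Krt7 was again the member that passed, where 14.6% of all genes did. The male controls had 106.6 to 111 CPM and the 4 volume-depleted males 41.9, 48.7, 83.4 and 95.2 CPM, all lower, where 14.5% of all genes had groups that did not overlap, with a log2 fold change of −0.67 (SE 0.19, adjusted p = 0.02163). The 4 libraries formed a low pair and a high pair. Replicates 6 and 7, the low pair, carry numbers of series B and replicates 1 and 2 of series A. The call was lost without replicate 6 (−0.50, adjusted p = 0.08623) or replicate 7 (−0.55, adjusted p = 0.0842), and with series A alone (−0.29, adjusted p = 0.3956). Females of the same group, at 23.8 and 41.4 CPM in series A and 42.9 CPM in series B, were all below their controls at 106.1 to 134 CPM. Krt5 was at 0.46 to 1.09 CPM, from 0.64 to 2.76 CPM in controls (−0.92, adjusted p = 0.1668). Replicate 1 had the lowest Krt8, Krt18, Krt23 and Krt80 of the group, with 44.4, 17.5, 2.47 and 13.0 CPM. Without it Krt18 was higher after volume depletion (0.54, adjusted p = 0.04603), where it was 0.28 with all libraries. No member's response to volume depletion passed the test of a difference between drivers in edgeR (4.2% of all genes passed), with Krt7 (0.65) the only 1 at an unadjusted p under 0.05, and none passed in DESeq2. With libraries of series A alone Krt7 passed (1.03, adjusted p = 0.009498).

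**Figure D4:**
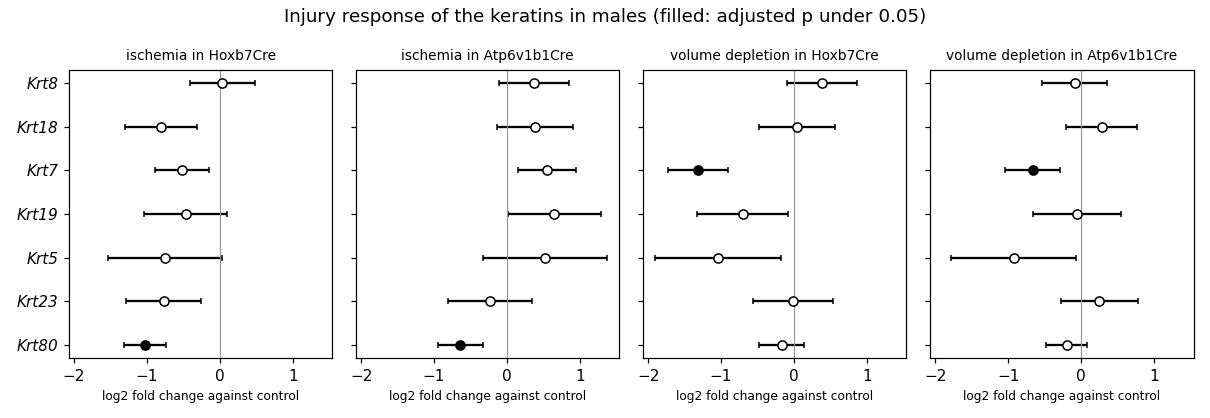
Log2 fold change of each keratin against control in males, 1 panel per stimulus and driver, with bars for the 95% interval and filled points for an adjusted p under 0.05. Krt80 is filled after ischemia in both pulldowns (−1.03 and −0.64) and Krt7 after volume depletion in both (−1.32 and −0.67).

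Compared directly, Krt7 was lower after volume depletion and Krt80 was lower after ischemia. In the Hoxb7Cre pulldown Krt7 was lower after volume depletion than after ischemia (log2 fold change −0.80, SE 0.21, adjusted p = 0.004967), while Krt80 (0.86, SE 0.16, adjusted p = 0.0001931), Krt18 (0.85, SE 0.27, adjusted p = 0.01648) and Krt23 (0.76, SE 0.28, adjusted p = 0.04057) were higher, 4 of 7 members against 33.3% of all genes. The Krt18 call was lost without volume depletion replicate 6 (0.66, adjusted p = 0.1042) or replicate 7 (0.81, adjusted p = 0.05571), and the Krt23 call without any of 5 libraries: volume depletion replicate 4, 6 or 7 or ischemia replicate 4 or 7 (adjusted p from 0.05264 to 0.1411). The Krt7, Krt80 and Krt23 libraries did not overlap (42.9% of all genes did not), and the Krt18 libraries touched: volume depletion replicate 4 at 45.5 CPM was just under ischemia replicate 5 at 45.6 CPM. In the Atp6v1b1Cre pulldown Krt7 (−1.22, SE 0.20, adjusted p = 0.0001351) and Krt5 (−1.45, SE 0.45, adjusted p = 0.01895) were lower after volume depletion and Krt80 (0.44, SE 0.16, adjusted p = 0.03611) was higher, 3 of 7 members against 29.3% of all genes. Krt7 and Krt5 were the 2 members without overlap there (29.6% of all genes). The Krt80 call was lost without any 1 of 7 libraries (adjusted p from 0.05348 to 0.1855) and the Krt5 call without ischemia replicate 1 (−1.14, adjusted p = 0.1178). Krt23 passed without volume depletion replicate 1 (0.74, adjusted p = 0.02596) and Krt19 without volume depletion replicate 2 (−0.94, adjusted p = 0.04622). With females in the fit the Krt7 difference in Hoxb7Cre was −0.51 and did not pass (adjusted p = 0.09787).

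The Krt7 response to volume depletion differed between the sexes in the Hoxb7Cre pulldown. The 4 volume-depleted females had 31.4, 89.6, 95.1 and 102.2 CPM and their controls 48.4, 72.4, 100 and 102.9 CPM, overlapping groups in which 1 library of each stood low. The low volume-depleted female, replicate 5, had 0.73 Krt7 reads per Krt18 read, within the volume-depleted male range of 0.71 to 0.90. The other volume-depleted females had 2.06 to 2.55, and the low control female, replicate 6, had 0.91. The male minus female log2 fold change was −1.29 (SE 0.37, adjusted p = 0.01899), the 1 of 7 members that passed, where 16% of all genes did. The call was lost without volume depletion replicate 3, 4 or 7 or control replicate 6 (adjusted p from 0.05047 to 0.05434). In females alone the response was −0.03. Principal cell markers moved with this difference, 7 of 8 lower (median −1.44), and their part in it was not tested. The same difference in the Atp6v1b1Cre pulldown had the other sign, 1.03 (SE 0.37), and did not pass (adjusted p = 0.4936). Krt7 was the only member there at an unadjusted p under 0.05, none passed in DESeq2, and 0% of all genes passed in edgeR. The sex difference of the ischemia response passed for no member in either pulldown, in edgeR or in DESeq2 (10.5% of all genes passed in Hoxb7Cre and 0% in Atp6v1b1Cre in edgeR). At an unadjusted p under 0.05 it held for 1 member in Hoxb7Cre and 0 in Atp6v1b1Cre. The 1 was Krt7 (−0.94, adjusted p = 0.09117), which passed without volume depletion replicate 5 (adjusted p = 0.03427) or control replicate 1 (adjusted p = 0.04558). Ischemic females had 94.9, 97.3 and 133 CPM, within or above the range of their controls, and ischemic males were all below theirs. Ischemic females of the Atp6v1b1Cre pulldown had 142, 179 and 195 CPM, above their 4 controls at 106.1 to 134 CPM as in males.

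**Figure D5:**
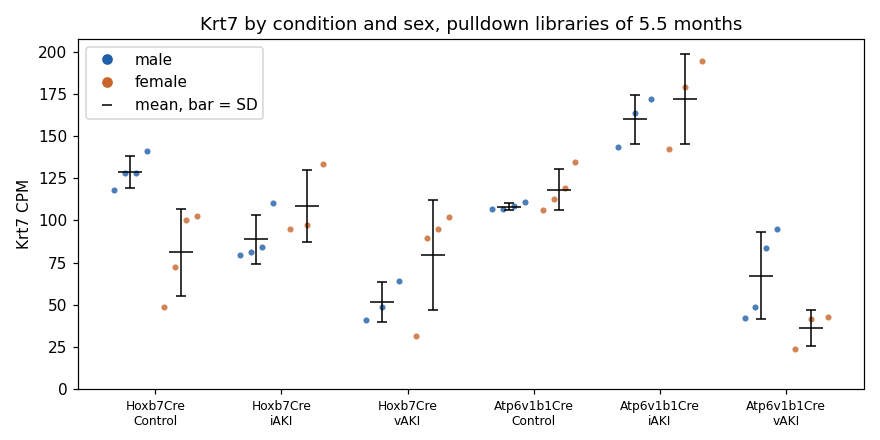
Krt7 CPM by driver, condition and sex, in pulldown libraries of 5.5 months, with males in blue, females in orange and mean and SD in black. Male Hoxb7Cre libraries fall from 118 to 141 CPM in controls to 41.1 to 64.3 CPM after volume depletion, while 3 of the 4 volume-depleted females lie between 89.6 and 102.2 CPM.

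The table holds 52 keratin genes. Of the 45 that are not members, 30 had at most 3 reads in every library and 6 averaged at least 10 reads, Krt20 with the most at 242 reads. Krt20, a type I keratin of umbrella cells of the urothelium that is also used as a marker of injured tubules, passed as higher after ischemia, where no member did. Its male Hoxb7Cre libraries were 1.65 to 2.40 CPM in controls and 9.40 to 34.5 CPM after ischemia (log2 fold change 3.26, SE 0.70, adjusted p = 0.008508), and in the Atp6v1b1Cre pulldown 1.07 to 8.86 CPM became 4.63 to 101.99 CPM (3.57, SE 0.71, adjusted p = 0.004265). It did not pass after volume depletion (0.24 and −0.94). Krt12 passed after ischemia in males of both pulldowns (3.18 and 4.28) and Krt4 in the Atp6v1b1Cre pulldown (3.50). Both had few reads, with a mean of 2.87 and at most 51 for Krt12 and a mean of 4.58 and at most 42 for Krt4. In males, volume depletion raised Krt83, a type II keratin of hair, from 0.78 to 2.52 CPM to 8.76 to 14.0 CPM in the Hoxb7Cre pulldown (2.97, SE 0.57, adjusted p = 0.0003143) and in the Atp6v1b1Cre pulldown (2.15, SE 0.54, adjusted p = 0.009972). The Hoxb7Cre females averaged 2.17 ± 2.11 CPM of Krt83 after volume depletion and 3.81 ± 2.29 CPM in controls (SD, n = 4 each). The volume-depleted ones ran from 0.64 to 5.29 CPM. In Atp6v1b1Cre females Krt83 was 4.88 to 12.1 CPM after volume depletion and 0.66 to 1.86 CPM in controls. The Krt83 transcript matches 1383 bases of Krt81 at 95.1% identity, and Krt81 had at most 3 reads in any library. How the counting divided reads between them was not tested. Krt85, another hair keratin, passed in males of both pulldowns (2.69 and 2.03). The Hoxb7Cre females averaged 0.72 ± 0.99 CPM of Krt85 after volume depletion and 0.93 ± 0.54 CPM in controls. Of the volume-depleted females, replicate 5 had 2.18 CPM and replicates 1, 2 and 3 had 0.05, 0.27 and 0.36 CPM. The volume-depleted Hoxb7Cre males had 2.34 to 3.47 CPM. In Atp6v1b1Cre females Krt85 was 1.77 to 4.12 CPM after volume depletion and 0.09 to 0.38 CPM in controls. Krt13 also passed in males of both pulldowns (3.48 and 2.96), with at most 14 reads in any of these libraries. Krt14, the usual partner of Krt5, had at most 24 reads in a male library and passed in no injury comparison. Krt15, a type I keratin of basal cells, was lower in the Atp6v1b1Cre than in the Hoxb7Cre controls (−1.68, SE 0.24), as Krt5 was.

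Keratin filaments are anchored at desmosomes by plakins and plakophilins. Of 20 genes of desmosomes and keratin linkers, 13 were higher and 4 lower in the Hoxb7Cre pulldown than in total RNA, a comparison in which 66.6% of all genes passed, with a median log2 fold change of 0.66. Of the 20, 4 passed between the control pulldowns, against 9.93% of all genes: Pkp1 (−2.24), Ppl (−1.02), Evpl (−0.64) and Dsp (−0.50) were lower in the Atp6v1b1Cre than in the Hoxb7Cre controls. After volume depletion in the Hoxb7Cre pulldown of males 2 rose and 4 fell, a smaller share than the 35.5% of all genes that passed. Those with the largest changes were Eppk1, a plakin that binds keratin (1.86), Dsc2, a desmosomal cadherin (−1.01), Itgb4, the integrin of hemidesmosomes (−0.94), and Dsp, the plakin that ties keratin to the desmosome (−0.65). After volume depletion in the Atp6v1b1Cre pulldown, where 14.6% of all genes passed, Eppk1 (1.21) and Ppl (0.98) rose and Dsc2 (−0.79) and Pkp3 (−0.51) fell. After ischemia in the Hoxb7Cre pulldown 2 of the 20 passed, Itga6 (0.86) and Evpl (−0.69), against 6.13% of all genes.

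Of 12 listed transcription factors of epithelial differentiation, 8 rose and 1 fell after volume depletion in the Atp6v1b1Cre pulldown of males, against 14.6% of all genes that passed in either direction. Among them were Ovol1 (1.83), Klf4 (1.53), Trp63 (1.23) and Ovol2 (1.19), and the median log2 fold change was 0.84. In the Hoxb7Cre pulldown 4 rose and 2 fell, where 35.5% of all genes passed, with Klf4 at 2.85, Ovol1 at 2.16, Tfap2b at −1.65 and Grhl1 at 1.11. Set directly against ischemia, 5 were higher and 1 was lower after volume depletion in the Hoxb7Cre pulldown, and 8 were higher and 1 lower in the Atp6v1b1Cre pulldown, against 33.3% and 29.3% of all genes, with Ovol1 at 2.18 and 2.68 and Klf4 at 2.13 and 1.98. In control pulldowns 8 of the 12 were lower in Atp6v1b1Cre than in Hoxb7Cre, where 9.93% of all genes passed, led by Grhl3 (−1.73), Klf5 (−1.37), Trp63 (−1.21) and Elf3 (−1.12). Trp63 is also on the urothelium list. This list and that of desmosomes and linkers were chosen with earlier results of these data known. Their shares beside those of all genes are therefore a description and no test.

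Across the 48 pulldown libraries, which share drivers, treatments and sexes, the members did not vary as 1 set. As a description of log2 CPM, Pearson's r was 0.66 for Krt8 with Krt18, 0.73 for Krt18 with Krt23 and 0.76 for Krt19 with Krt5. With the group means removed these were 0.77, 0.66 and 0.57. Before the group means were removed, r with any other member was at most 0.37 for Krt7 and 0.24 for Krt80, and within groups it was at most 0.35 for Krt7 (with Krt19) and 0.36 for Krt80 (with Krt18). Among 15129 genes with a mean of at least 10 reads, the closest to Krt7 were Cap1 (0.94), an actin-binding protein, Arfrp1 (0.93) and Ctdsp1 (0.93). For Krt8 they were Anxa2 (0.73), Lgals3 (0.72) and Clic1 (0.70), and for Krt18 they were Fam129b (0.78), Cldn7 (0.74), a tight junction claudin, and Krt23 (0.73). Those closest to Krt19 were Syt8 (0.85), Cers3 (0.85) and Trim29 (0.82), and to Krt5 Krt19 (0.76), Hoxd3 (0.76) and Trim29 (0.74). Krt23 was nearest to Dnase1l2 (0.82), Fgfr2 (0.78) and Slc2a8 (0.78), and Krt80 to Hpd (0.72), Ppp1r37 (0.69) and Trak1 (0.68).

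The pulldown can favour RNA with more uracil. The share of uracil in the principal transcript was lowest of the 7 in Krt18 (17.4%) and highest in Krt7 (23.7%), with Krt19, Krt8, Krt23, Krt5 and Krt80 between 19.4% and 20.7%, all under the median of 24.7% over 19917 protein-coding genes. The part of uracil content in the keratin differences was not tested. Gm671 is antisense to Krt7, Gm35853 is antisense to Krt80, and a lincRNA overlaps the start of Krt8. None of these 3 has a row in the table.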

How the data were processed

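The deposited table holds raw counts of reads per gene symbol, 1 column for each of 69 libraries, not normalized. To make these counts the authors prepared poly(A) libraries, sequenced them on an Illumina HiSeq, trimmed with CASAVA 1.8.2 and Trimmomatic 0.36, aligned to mm10 with STAR 2.5.3a and counted with HTSeq 0.6.1p2 at default settings. The table was normalized here by TMM and tested with edgeR 4.0.16 (quasi-likelihood test, R 4.3.3) over the 21175 of 24411 genes with at least 2 counts in all, with Benjamini-Hochberg adjustment over all of them and a threshold of 0.05. A log2 fold change is from control to stimulus unless stated. Its SE was taken as its size over the root of F, and a 95% interval as 1.96 SE to each side.

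Injury comparisons used 1 fit of the 22 male pulldown libraries of 5.5 months, control comparisons 1 fit of the 42 control libraries with sex, and sex differences of the response 1 fit of the 43 pulldown libraries of 5.5 months. The common dispersion was 0.0444 in the first and 0.0473 in the second. In simulated counts for ischemia in Hoxb7Cre, with 21175 genes, 22.4% of 67 genes changed 1.5-fold were recovered, 79.1% of 67 changed 2-fold and 98.5% of 66 changed 4-fold. Library series are read from the library numbers. HTSeq at its default setting counts by strand, and whether the kit kept strand is not given in the sources used here. No library repeated another: over 121 pairs of the same group the lowest chi-square per gene was 11.

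Named were all 7 members, Krt20 and Krt14, up to 4 passing genes of each list by size, and the 3 genes of highest Pearson r per member. The members and the lists were chosen with earlier results of these data known. Transcript lengths are of GENCODE vM21. Alternatives were DESeq2 1.42.0, its size factors, filterByExpr or no filter, a DEG threshold (a further minimum of 1 on the log2 scale), both sexes or females, 25 males with those of 3 months, the compared groups alone, a replicate block, library series and each library left out.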

Additional observations from a re-analysis of the deposited data

Results flagged for a closer look

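In 64 groups of 4 to 10 libraries, tested per keratin and for the Krt8 to Krt18 ratio, 5 held a library far from the others by Dixon's criterion, where chance alone gives about 5% of groups. The male Hoxb7Cre ischemia library of replicate 5 was high for Krt7, at 110 CPM with the next at 84.5, and for Krt8, at 107.2 CPM with the next at 76.7. In the same group replicate 6 had the lowest Krt8 to Krt18 ratio, 2.24, with the next at 2.34. Among Atp6v1b1Cre controls of 5.5 months, the female of replicate 12 was high for Krt19, at 8.93 CPM with the next at 4.73, and the male of replicate 6 was low for Krt80, at 20.2 CPM with the next at 22.1.

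In males, the response to ischemia differed between the drivers for Krt7 (difference of log2 fold changes 1.08, edgeR adjusted p = 0.02097) and Krt18 (1.19, adjusted p = 0.04674). The Krt18 call was lost when any 1 of 15 libraries was left out, and the Krt7 call when 1 was. With both sexes in the fit neither passed. The Krt7 response to volume depletion in Hoxb7Cre differed between the sexes, male minus female −1.29 (edgeR adjusted p = 0.01899). That call was lost when any 1 of 4 libraries was left out.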

How the results depend on the processing

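Counts of the 7 members past the threshold were read again under each alternative. For ischemia in Hoxb7Cre, 1 member passed, and 2 with filterByExpr, with 25 males, with the series as covariate and with series A alone, 3 with DESeq2 and with both sexes, 4 with the compared groups alone and 1 to 3 without 1 library. For volume depletion in Hoxb7Cre, 1 passed, and 0 in females, 3 with the compared groups alone or the series as covariate and 1 to 2 without 1 library. For ischemia in Atp6v1b1Cre, 1 passed, and 0 as DEG or in females, 2 with both sexes, with 25 males or with the compared groups alone and 0 to 2 without 1 library. For volume depletion in Atp6v1b1Cre, 1 passed, and 0 as DEG, with the compared groups alone or in series A, 2 with both sexes and 0 to 2 without 1 library. Volume depletion against ischemia gave 4 in Hoxb7Cre, 0 as DEG or in females and 2 to 4 without 1 library, and in Atp6v1b1Cre 3, 5 with both sexes and 1 to 4 without 1 library. The driver difference of the ischemia response gave 2, 0 with both sexes or in females, 4 with the series as covariate, 1 in series A and 0 to 3 without 1 library, and that of volume depletion gave 0 and 1 in series A. Against total RNA, the 6 members of the Hoxb7Cre and of the Atp6v1b1Cre comparison became 2 and 0 as DEG, and the 4 between the control pulldowns became 2 in females. Males against females gave 3, 0 as DEG, 6 in total RNA alone and 0 in each pulldown alone, where Krt18 reversed in Hoxb7Cre (0.22). The sex difference of the response in Hoxb7Cre gave 0 for ischemia and 1 for volume depletion, and 0 to 1 for each without 1 library. The difference of the sex effect between total and pulldown RNA gave 0, 1 with DESeq2 and 2 in mice of 5.5 months. The cause of these changes was not tested.

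Deviations of same-numbered libraries had a mean correlation of −0.016 (lowest −0.055) over 3 pairs of ischemia and volume depletion in Hoxb7Cre. Over 10 pairs of Hoxb7Cre and total controls the mean was 0.031 (lowest −0.368). Some of those total libraries were of the Atp6v1b1Cre genotype, so replicate numbers cannot show which total and pulldown libraries share a mouse. Pairs by order of library number, in which genotype, sex and age match, were not tested. With the replicate block, 2 members passed for ischemia in Hoxb7Cre, 0 for ischemia in Atp6v1b1Cre, 0 for the driver difference of the ischemia response, 0 for males against females and 0 for the sex difference of volume depletion in Hoxb7Cre, and the other counts stayed within 1.5 times. The block is the running number in the library titles, and no label ties it to a mouse or a batch. Male ischemia and control libraries of Atp6v1b1Cre share 0 such numbers. These counts therefore cannot show how firm the calls are. Depth limits Krt5 most, with 7 to 112 reads per library.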
